A study of Mus musculus with 8 samples.

Results

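The NF-kappaB transcription factors and the proteins that restrain them were followed at the RNA level in the distal colon of mice, with and without *Hsf1*, before and after inflammation was induced. The genes are 10 in all and were chosen by name. They are the genes of the 5 subunits, *Nfkb1*, *Nfkb2*, *Rel*, *Rela* and *Relb*, and of 5 inhibitors and modulators, *Nfkbia*, *Nfkbie*, *Nfkbiz*, *Tnfaip3* and *Bcl3*. The count table holds 15859 genes. All 10 were among them, and all 10 were among the 14371 genes tested, those with a mean normalized count above 5. RNA-seq was run on distal colon from 8 male mice of a BALB/c x 129SvEV background, 2 in each of 4 groups. WT day 0 and *Hsf1* null day 0 mice received no treatment. WT day 15 and *Hsf1* null day 15 mice received azoxymethane (AOM), a colon carcinogen, as an intraperitoneal dose of 10 mg/kg at the age of 8 weeks, and dextran sulfate sodium (DSS), an irritant of the colon lining, at 1.5% in the drinking water from day 7 for 5 days. The labels give an age of 10 weeks for all mice, and their protocol ends with DSS, while the sample names place the treated mice at day 15. The null allele is carried by every cell, so these groups do not tell which cell type a difference comes from. *Hsf1* was measured at 40.5 and 36.5 CPM, the counts scaled to a fixed total per library, in the WT day 0 mice, 50.5 and 45.9 CPM in the WT day 15 mice, 14.0 and 11.9 CPM in the null day 0 mice, and 13.5 and 9.09 CPM in the null day 15 mice, so every null mouse was below every WT mouse and some *Hsf1* reads remained. Libraries held between 2553348 and 12440257 counts, and the smallest were replicate 2 of both day 0 groups.

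NF-kappaB is a dimer of subunits that share a DNA-binding domain. In resting cells the dimers are held in the cytoplasm by inhibitors of the IkappaB family. In the canonical arm, signals such as TNF, interleukin-1 and bacterial products activate the IKK kinases, which mark the inhibitors for destruction and free dimers such as p50 (from *Nfkb1*) with RelA. In the non-canonical arm, lymphotoxin and related signals stabilise the kinase NIK, and p100 (from *Nfkb2*) is cut to p52, which pairs with RelB. Several of the inhibitors are themselves NF-kappaB targets, which makes them part of a negative feedback loop. In the colon the pathway is active in epithelium, stroma and immune cells during inflammation.

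Stretches of their promoters are given because inhibitors of the pathway are among its targets. RefSeq promoter windows of GRCm38.p6, from 250 bases before to 50 after a transcription start, were matched for 7 of the 10 genes, 10 windows in all. *Nfkb1*, *Relb* and *Nfkbiz* had no window. The kappaB consensus was searched on both strands, with overlapping matches merged. It was present in 4.51% of 32851 windows and in 8 of the 10 windows of these genes, which belong to 6 of the 7 genes. *Rela* had none. In the stretches of 30 bases below, taken from the most upstream window of each gene and read along its strand, capitals mark the kappaB match and positions are counted from the transcription start.
Nfkb2, chr19:46304688-46304717, plus strand, match from -39 to -29: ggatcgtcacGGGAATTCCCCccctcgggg
Nfkb2, chr19:46304716-46304745, plus strand, match from -11 to -2: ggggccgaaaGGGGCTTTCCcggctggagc
Rel, chr11:23771042-23771071, minus strand, match from -92 to -82: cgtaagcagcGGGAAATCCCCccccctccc
Nfkbia, chr12:55492657-55492686, minus strand, match from -29 to -20: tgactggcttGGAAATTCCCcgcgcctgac
Nfkbie, chr17:45555584-45555613, plus strand, match from -106 to -97: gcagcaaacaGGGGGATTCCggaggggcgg
Tnfaip3, chr10:19015516-19015545, minus strand, match from -125 to -116: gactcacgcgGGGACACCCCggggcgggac
Tnfaip3, chr10:19015403-19015432, minus strand, match from -12 to -3: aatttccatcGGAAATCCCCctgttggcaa
Bcl3, chr7:19822734-19822763, minus strand, match from 3 to 12: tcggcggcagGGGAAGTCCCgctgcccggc
Short paired arrangements from the heat shock element, the motif bound by HSF1, were searched in the same windows. The full element was not searched. GAANNTTC was in 7.86% of all windows and in 1 of the 10 windows of these genes, that of *Rel*. TTCNNGAA was in 8.52% of all windows and in 0 of the 10. A match describes the letters of these windows only.

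In the GENCODE annotation of GRCm38 (mm10) the genes lie on different chromosomes for the most part, and none of them is on chromosome 15, where *Hsf1* lies. *Nfkb2* is at chr19:46304320-46312385 and *Rela* at chr19:5637483-5648130. *Relb* is at chr7:19606217-19629438 and *Bcl3* at chr7:19808462-19822770. *Nfkb1* is at chr3:135584655-135691547, *Rel* at chr11:23736847-23770970, *Nfkbia* at chr12:55489410-55492647, *Nfkbie* at chr17:45555703-45563169, *Nfkbiz* at chr16:55811375-55838899 and *Tnfaip3* at chr10:19000910-19015657. Exons of *Nfkb2* overlap those of *Psd* and AC114539.1 on the opposite strand, and those of *Bcl3* overlap Gm16175. The strand setting of the counting is not given in the sources used here, so reads from these overlaps cannot be told apart. *Psd* itself had between 65 and 346 counts per library, and was highest at 46.1 CPM in WT day 0 replicate 2.

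Per length, *Nfkbia*, which encodes the inhibitor IkappaB-alpha, had the highest level of the 10 genes in every mouse, between 32.4 and 216 CPM per kb of exon. *Rel*, the c-Rel subunit best known from lymphocytes, had the lowest in every mouse, between 0.436 and 2.72 CPM per kb. *Bcl3*, an atypical IkappaB protein that acts in the nucleus with p50 and p52, ranked 2 or 3 in each mouse, at 12.1 to 72.5 CPM per kb. With the length of the longest transcript in place of all exons, *Nfkbia* and *Rel* kept these places and *Bcl3* ranked between 2 and 4.

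Among the 5 subunit genes, *Rela*, the main activating subunit of the canonical arm, made up 42.5% and 44.4% of the summed CPM per kb in WT day 0 mice, 36.8% and 36.9% in null day 0 mice, 37.6% and 29.4% in WT day 15 mice, and 35.9% and 41.0% in null day 15 mice. *Nfkb2* made up 25.0% and 19.4% in WT day 0 mice, 21.1% and 14.6% in null day 0 mice, 32.2% and 41.5% in WT day 15 mice, and 27.6% and 24.4% in null day 15 mice. Its share was thus highest in the WT day 15 mice, with no overlap with any other group, and *Nfkb2* passed *Rela* in WT day 15 replicate 2. The share of *Nfkb1* depends on which length is used, since its exons add up to 12061 bases and its longest transcript has 4149. It ranged from 8.99% to 24.3% over the mice with the first and from 19.8% to 44.7% with the second, while the *Nfkb2* share remained highest in WT day 15 with both.

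**Figure D1:**
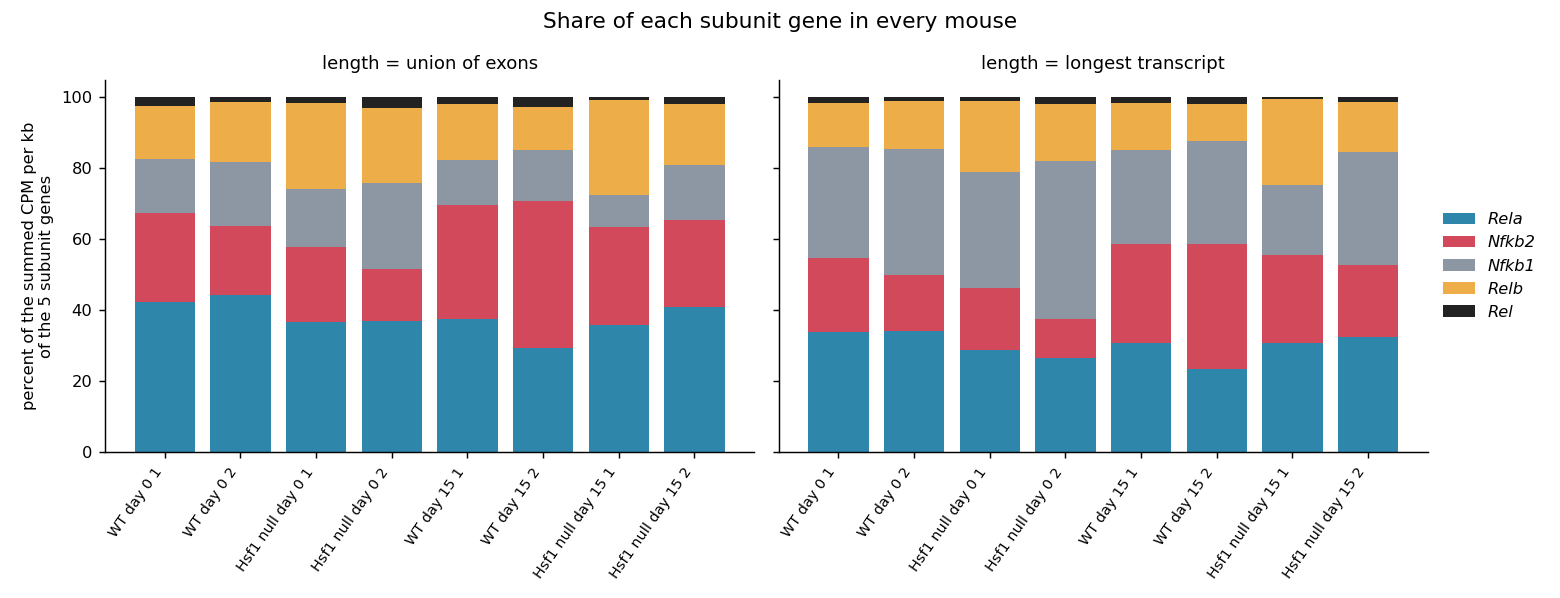
Stacked bars give the percent of the summed CPM per kb of *Rela*, *Nfkb2*, *Nfkb1*, *Relb* and *Rel* in each of the 8 mice, with the union of exons as length on the left and the longest transcript on the right. The *Nfkb2* part is widest in the WT day 15 mice, 32.2% and 41.5% on the left, and the *Nfkb1* part is wider throughout on the right.

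The levels of the subunits in single mice are given next, as TMM-normalized CPM, with replicate 1 before replicate 2. *Nfkb2*, the p100 precursor, was at 62.6 and 45.3 CPM in WT day 0, 50.01 and 18.7 CPM in null day 0, 109 and 192 CPM in WT day 15, and 83.6 and 55.1 CPM in null day 15. Both WT day 15 mice were above all the other mice, and both null day 15 mice were above the null day 0 mice. *Nfkb1*, the p105 precursor of p50, was at 101 and 110.0 CPM in WT day 0, 101 and 81.6 CPM in null day 0, 112 and 172 CPM in WT day 15, and 71.5 and 93.4 CPM in null day 15. Here too the WT day 15 mice were the highest, but replicate 1 only by a small margin over WT day 0. *Rel* was at 9.31 and 4.76 CPM in WT day 0, 5.50 and 6.11 CPM in null day 0, 11.0 and 20.3 CPM in WT day 15, and 3.26 and 6.95 CPM in null day 15, on as few as 12 reads in a library. Both WT day 15 mice again had the highest values, and the other groups overlapped.

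*Rela* was at 71.4 and 69.5 CPM in WT day 0, 58.3 and 31.6 CPM in null day 0, 85.8 and 90.8 CPM in WT day 15, and 72.7 and 62.2 CPM in null day 15. Its WT values lay close together at each day, and at each day both were above both null values. *Relb*, the partner of p52, was at 31.8 and 33.7 CPM in WT day 0, 48.9 and 23.0 CPM in null day 0, 45.1 and 47.6 CPM in WT day 15, and 68.7 and 32.6 CPM in null day 15. For *Relb* the null mice of each day stood on either side of the WT mice.

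Of the IkappaB genes, *Nfkbia* was at 236 and 222 CPM in WT day 0, 277 and 52.1 CPM in null day 0, 348 and 293 CPM in WT day 15, and 253 and 208 CPM in null day 15. One null day 0 mouse was the highest of day 0 and the other the lowest of all 8, while both WT day 15 mice were above all the others. *Nfkbie*, which encodes IkappaB-epsilon, was at 27.1 and 13.9 CPM in WT day 0, 14.9 and 7.91 CPM in null day 0, 26.9 and 77.2 CPM in WT day 15, and 22.8 and 21.5 CPM in null day 15. WT day 15 replicate 2 alone stood far above the rest. *Nfkbiz*, which encodes IkappaB-zeta, a nuclear cofactor needed for part of the NF-kappaB targets, was at 43.8 and 32.6 CPM in WT day 0, 27.2 and 51.7 CPM in null day 0, 55.9 and 63.4 CPM in WT day 15, and 31.0 and 42.8 CPM in null day 15, with the WT day 15 mice again highest.

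*Tnfaip3*, which encodes A20, an enzyme that edits ubiquitin chains and shuts off signaling to IKK, was at 95.1 and 84.6 CPM in WT day 0, 83.8 and 69.4 CPM in null day 0, 85.1 and 87.1 CPM in WT day 15, and 56.3 and 38.5 CPM in null day 15. The WT mice of both days overlapped, and both null day 15 mice were below all 6 of the others. *Bcl3* was at 42.1 and 66.3 CPM in WT day 0, 48.5 and 29.8 CPM in null day 0, 128 and 179 CPM in WT day 15, and 75.2 and 121 CPM in null day 15. Every treated mouse was above every untreated mouse, and within day 15 both WT mice were above both null mice.

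**Figure D2:**
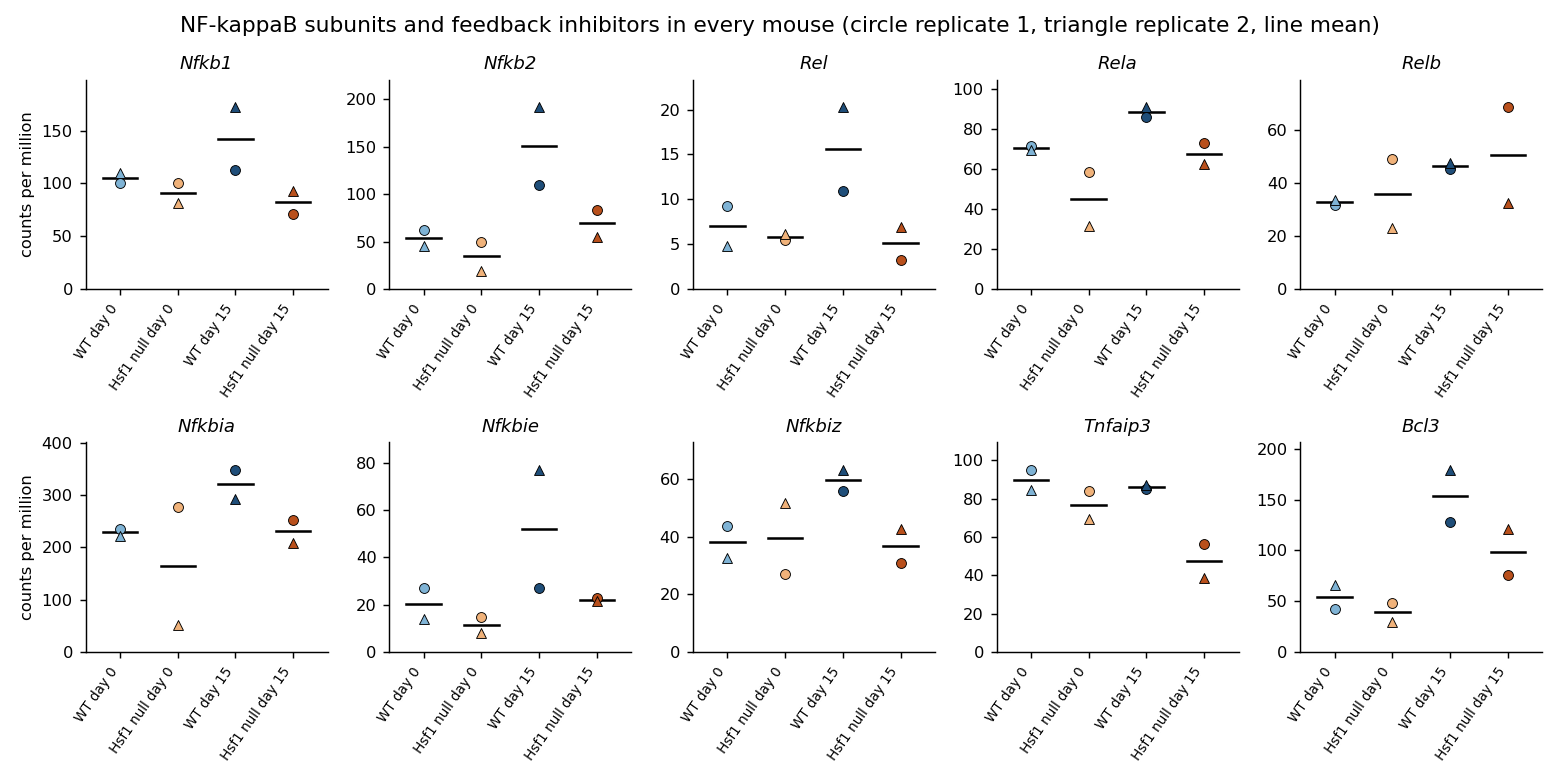
Each panel gives 1 gene, with CPM on the y axis from 0, the 4 groups on the x axis, a circle for replicate 1, a triangle for replicate 2 and a line at the group mean. In 8 of the 10 panels the mean of WT day 15 is the highest, *Relb* and *Tnfaip3* being the exceptions, against 29.2% of all genes tested.

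The first question the design poses is whether the treated colon differs between genotypes. In WT against *Hsf1* null at day 15, 9 of the 10 genes had both WT mice above both null mice, with *Relb* as the exception. The same held for 28.6% of all genes tested. The median log2 difference, WT minus null, was 0.74 over the 10 genes and 0.035 over all genes tested. None of the 10 passed the test of edgeR, for which a gene had to differ by more than 1 on the log2 scale at an adjusted p below 0.05. In that comparison 3.17% of all genes tested were called and 1.25% were called higher in WT. An unadjusted p under 0.05 with a higher level in WT was found for 5 of the 10, *Nfkb1*, *Nfkb2*, *Rel*, *Nfkbie* and *Tnfaip3*, and for 11.6% of all genes tested. DESeq2 called none of the 10 either, with an adjusted p of 0.0507 for *Rel*. In these bulk samples, fewer cells of a type and less RNA per cell cannot be told apart.

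For the subunits at day 15 the estimated log2 differences were 1.60 for *Rel* (SE 0.52, 95% interval 0.44 to 2.76, adjusted p = 0.111), 1.12 for *Nfkb2* (SE 0.44, interval 0.14 to 2.10, adjusted p = 0.165) and 0.79 for *Nfkb1* (SE 0.27, interval 0.18 to 1.39, adjusted p = 0.126). As a ratio, the *Nfkb2* estimate is a 2.17-fold higher level in WT. Leaving out each mouse in turn, *Rel* ranged from 1.09, without WT day 15 replicate 2, to 2.25, without null day 15 replicate 2, *Nfkb2* from 0.66 to 1.47 and *Nfkb1* from 0.45 to 1.06. *Rela* differed by 0.39 (SE 0.29, interval -0.25 to 1.03, adjusted p = 0.442), a smaller estimate with an interval that includes 0. *Relb* was estimated at -0.13 (SE 0.40, interval -1.02 to 0.77, adjusted p = 0.885), and at 0.50 without *Hsf1* null day 15 replicate 1, the mouse in which it was highest.

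For the inhibitors at day 15 the lowest adjusted p was that of *Tnfaip3*, 0.0855, at a log2 difference of 0.86 (SE 0.25, interval 0.30 to 1.42). *Nfkbie* was estimated at 1.23 (SE 0.51, interval 0.10 to 2.36, adjusted p = 0.182) and at 0.28 without WT day 15 replicate 2, the mouse with the high value. *Nfkbiz* was estimated at 0.69 (SE 0.34, adjusted p = 0.248), *Bcl3* at 0.64 (SE 0.35, adjusted p = 0.294) and *Nfkbia* at 0.48 (SE 0.55, adjusted p = 0.642), each with an interval that includes 0. The number with an unadjusted p under 0.05 was 5 with all mice, 1 without WT day 15 replicate 2, 2 without null day 15 replicate 1 and 3 without null day 15 replicate 2. The share of all genes tested with such a p and a higher level in WT was 6.32%, 6.63% and 13.5% in these fits.

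Before treatment, at day 0, none of the 10 genes was called, as was 0% of all genes tested, none had an unadjusted p under 0.05, and DESeq2 called none of the 10. The smallest adjusted p was 0.794, that of *Rela*, at a log2 difference of 0.63 (SE 0.29, interval -0.02 to 1.28). Both WT mice were above both null mice for *Rela* and *Tnfaip3*, so 2 of the 10 genes did not overlap, against 18.4% of all genes tested. *Nfkbie* was estimated at 0.83 (SE 0.53), *Nfkb2* at 0.62 (SE 0.45) and the other 7 between -0.17 and 0.46, with intervals that include 0. Leaving out each mouse in turn, *Nfkb2* ranged from 0.12, without null day 0 replicate 2, to 1.54, without null day 0 replicate 1, and *Nfkbie* from 0.24, without WT day 0 replicate 1, to 1.41, without null day 0 replicate 1. *Hsf1* itself, at a log2 difference of 1.57 (SE 0.30) at day 0, had an adjusted p of 0.775 in this comparison, and of 0.0137 at 2.10 (SE 0.30) at day 15.

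The second question is how AOM and DSS change the genes within a genotype. The comparisons share mice with those above and with each other, so each is given by its own values. In WT colon, 1 of the 10 genes was called, *Bcl3*, which rose by a log2 of 1.52 (SE 0.36, interval 0.72 to 2.32, adjusted p = 0.0328), a 2.87-fold higher level at day 15. Of all genes tested 7.74% were called and 3.47% were called higher. The call of *Bcl3* was lost without WT day 0 replicate 1, WT day 0 replicate 2 or WT day 15 replicate 2. Without any 1 of these mice, calls over all genes tested fell too. The estimate of *Bcl3* was between 1.21 and 1.88 over the fits that each left out 1 mouse.

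Next after *Bcl3* in WT was *Nfkb2*, with a log2 difference of 1.47 between the days (SE 0.45, interval 0.47 to 2.46, adjusted p = 0.0695). DESeq2 called it (adjusted p = 0.0087), as did edgeR on counts thinned to the smallest library (0.0421). *Nfkbie* stood at 1.31 (SE 0.51, adjusted p = 0.133) and *Rel* at 1.09 (SE 0.52, adjusted p = 0.203). *Nfkbie* was called only without WT day 15 replicate 1, at 1.88 (adjusted p = 0.0439), and stood at 0.36 (adjusted p = 0.742) without WT day 15 replicate 2. Over the fits that each left out 1 mouse, *Nfkbie* ranged from 0.36 to 1.90, *Rel* from 0.58 to 1.71 and *Nfkb2* from 1.01 to 1.82. The estimates of *Nfkbiz* (0.63), *Relb* (0.50), *Nfkbia* (0.48), *Nfkb1* (0.44) and *Rela* (0.33) were positive with intervals that include 0, and that of *Tnfaip3* was -0.06 (SE 0.25). Without overlap, 8 of the 10 genes were higher at day 15 in WT, against 31.0% of all genes tested, the exceptions being *Nfkbie* and *Tnfaip3*.

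In *Hsf1* null colon, *Bcl3* was again the 1 gene called, at a log2 difference of 1.31 (SE 0.36, interval 0.51 to 2.10, adjusted p = 0.0413), or 2.48-fold. Of all genes tested 11.8% were called and 5.30% were called higher. This call was lost on thinned counts (adjusted p = 0.0698), and without null day 0 replicate 2, null day 15 replicate 1 or null day 15 replicate 2. Without any 1 of these mice, calls over all genes tested fell too. *Nfkb2* was estimated at 0.97 (SE 0.44, interval -0.02 to 1.96, adjusted p = 0.161), *Nfkbie* at 0.91 (SE 0.52, adjusted p = 0.257) and *Rela* at 0.56 (SE 0.29, adjusted p = 0.208). Together with *Bcl3* these were the 4 genes of the 10 that were higher at day 15 without overlap, against 31.0% of all genes tested.

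*Tnfaip3* was the 1 gene of the 10 lower without overlap in null mice at day 15, against 30.3% of all genes tested, with a log2 difference of -0.70 (SE 0.25, interval -1.26 to -0.13, adjusted p = 0.0915). *Nfkbia* (0.47), *Relb* (0.46), *Nfkbiz* (-0.07), *Nfkb1* (-0.15) and *Rel* (-0.17) had intervals that include 0. The null day 0 group decides several of these values. Without its replicate 1, *Nfkb2* (1.89, adjusted p = 0.0442), *Rela* (1.09, 0.0401) and *Nfkbia* (2.14, 0.0149) were called beside *Bcl3*, 4 of the 10 in all against 13.2% of all genes in that fit, and without its replicate 2 the estimate for *Nfkb2* was 0.47 and that for *Nfkbia* -0.26.

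**Figure D3:**
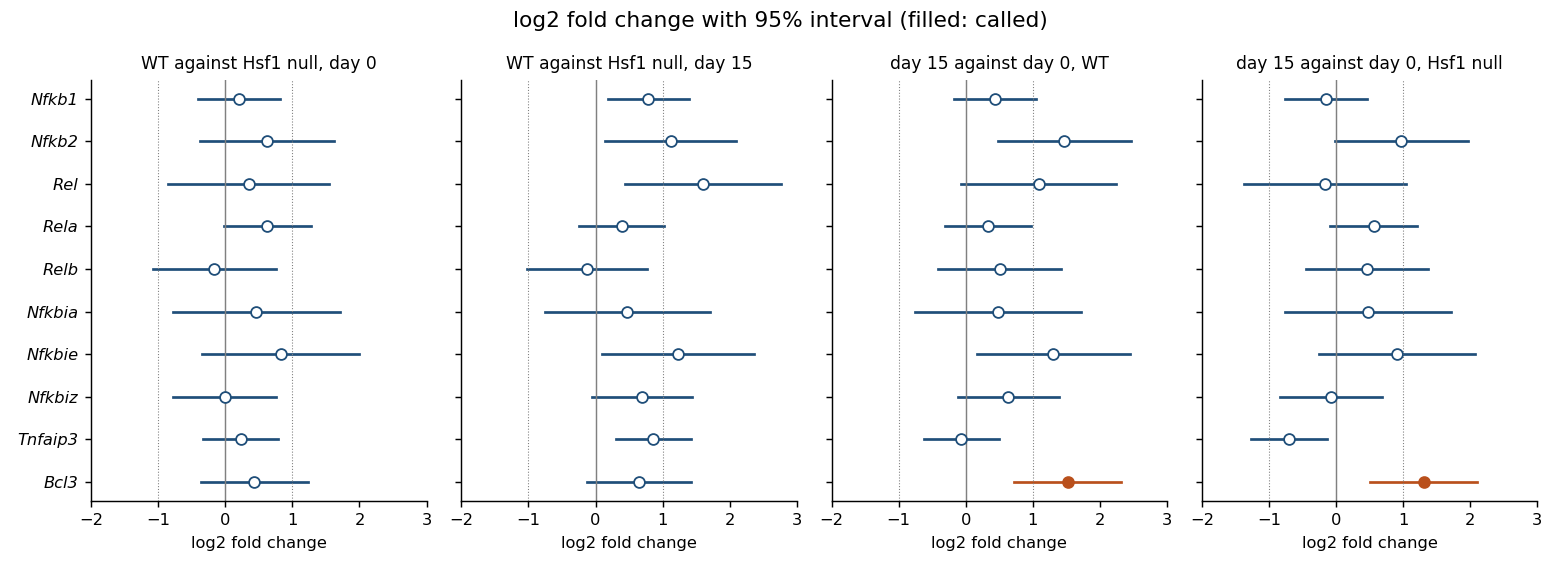
Points give the estimated log2 fold change of each gene in 4 comparisons, lines the 95% interval, and filled points the genes called. *Bcl3* is the gene called in each change from day 0 to day 15, and at day 15 the intervals of *Nfkb1*, *Nfkb2*, *Rel*, *Nfkbie* and *Tnfaip3* lie above 0.

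Whether the change with treatment differed between the genotypes was tested as an interaction, the WT change minus the null change. None of the 10 genes was called, none had an unadjusted p under 0.05, and DESeq2 called none of them. Of all genes tested 0.00696% were called. The estimates ran from -0.24 for *Rela* to 1.25 for *Rel* (SE 0.75, interval -0.41 to 2.92), and the smallest adjusted p was 0.658, that of *Tnfaip3*, at 0.63 (SE 0.35, interval -0.16 to 1.42). For *Bcl3* the interval ran from -0.90 to 1.32 and for *Nfkb2* from -0.89 to 1.88. Every one of the 10 intervals held 0 and also an absolute log2 difference above 1.

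Single mice stood at the ends of the range. WT day 15 replicate 2 had the highest level of all 8 mice for 7 of the 10 genes, against 17.6% of all genes tested, and was above replicate 1 of its group for 9 of the 10, all but *Nfkbia*. *Hsf1* null day 0 replicate 2 had the lowest level for 6 of the 10, *Nfkb2*, *Rela*, *Relb*, *Nfkbia*, *Nfkbie* and *Bcl3*, against 22.3% of all genes tested. That library held 2675976 counts and was also the highest of all 8 for 22.1% of all genes tested. Over the 8 mice the highest level divided by the lowest was 10.3 for *Nfkb2*, 9.77 for *Nfkbie*, 6.68 for *Nfkbia*, 6.23 for *Rel* and 6.01 for *Bcl3*, and between 2.33 and 2.99 for the other 5.

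The rest of the pathway was described from lists of its parts, which were chosen with earlier results of these data known. Of all genes tested, 1.25% were called higher in WT than in null mice at day 15. Of the ligands and receptors of the canonical arm, 3 of 14 were called higher and none lower. They were *Il1b*, the cytokine interleukin-1 beta (log2 3.66, SE 0.83, adjusted p = 0.0460), its receptor *Il1r1* (1.93, SE 0.36, adjusted p = 0.0274) and the TNF receptor *Tnfrsf1b* (1.54, SE 0.34, adjusted p = 0.0442). *Il1b* reached 11.6 and 72.6 CPM with *Hsf1* and 1.86 and 4.68 CPM without it. *Tnf* was at 35.9 and 44.9 CPM against 10.9 and 14.6 CPM, without overlap, but was not called (adjusted p = 0.0909). The median of the list was 0.89, against 0.035 over all genes tested.

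In the non-canonical arm the median was 0.91. Here edgeR called 1 of 10 ligands and receptors tested, against 3.17% of all genes tested. The called gene was *Tnfsf11*, the ligand RANKL, at 34 and 98 counts in WT and 2 and 3 counts in null mice at day 15, too few for a fold change. *Ltb*, a subunit of lymphotoxin, was at 60.5 and 124 CPM in WT against 41.7 and 58.0 CPM in null mice, *Ltbr*, its receptor, at 264 and 193 CPM against 238 and 137 CPM, and *Map3k14*, which encodes NIK, at 17.1 and 28.4 CPM against 14.7 and 14.2 CPM. None of these 3 was called at day 15 between genotypes. Among 16 other inhibitors 1 was called higher in WT, *Zc3h12a*, an RNase that degrades inflammatory transcripts (1.22, SE 0.25, adjusted p = 0.0337). The share over all genes tested was 1.25%, and the list median was 0.084. Among 30 IKK kinases and adaptors edgeR called none and DESeq2 none, with a median of 0.043. An unadjusted p under 0.05 was found for 3 of the 30, against 23.2% of all genes tested.

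Textbook targets of NF-kappaB, the genes its dimers switch on, were 26 among the genes tested. At day 15, 9 of the 26 were called higher in WT and none lower, against 1.25% of all genes tested called higher. The median was 1.89 for the list and 0.035 over all genes tested. The called genes were *Cxcl1*, *Cxcl2*, *Cxcl5*, *Cxcl13*, *Vcam1*, *Csf3*, *Nos2*, *Lcn2* and *Saa3*. *Lcn2*, an antibacterial siderophore-binding protein, was at 78.6 and 347 CPM in WT against 4.34 and 8.29 CPM in null mice (5.06, SE 0.67, adjusted p = 0.0137). *Saa3*, an acute-phase protein, was at 490 and 1185 CPM against 35.2 and 40.4 CPM (4.47, SE 0.45, adjusted p = 0.00631). *Csf3*, the neutrophil growth factor, was at 73 and 140 counts in WT and 0 and 1 counts in null mice.

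Calls in the lists leaned on single mice as well. So did calls over all genes tested, and the losses below are not particular to these lists. The count of 9 targets fell to 1 without null day 0 replicate 1, null day 0 replicate 2 or null day 15 replicate 1, and to 2 without WT day 15 replicate 2, and without any 1 of these 4 mice neither the 3 canonical genes nor *Tnfsf11* were called. *Il1b* was also lost without WT day 0 replicate 1, WT day 0 replicate 2 or null day 15 replicate 2, and *Tnfsf11* also without null day 15 replicate 2. Over the 8 fits that each left out 1 mouse, *Saa3* remained called in 8, *Lcn2* in 5, *Il1r1*, *Tnfrsf1b*, *Cxcl5*, *Nos2* and *Csf3* in 4, *Tnfsf11* in 3, and *Il1b* and *Zc3h12a* in 1. With all mice DESeq2 called 13 targets, 5 canonical genes, 3 non-canonical genes and 2 other inhibitors, all higher in WT. Of all genes tested DESeq2 called 8.41% in that comparison, against 3.17% by edgeR. A fit to the 4 day 15 mice alone called 6 of all genes tested and none of the genes of these lists, *Saa3* included.

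**Figure D4:**
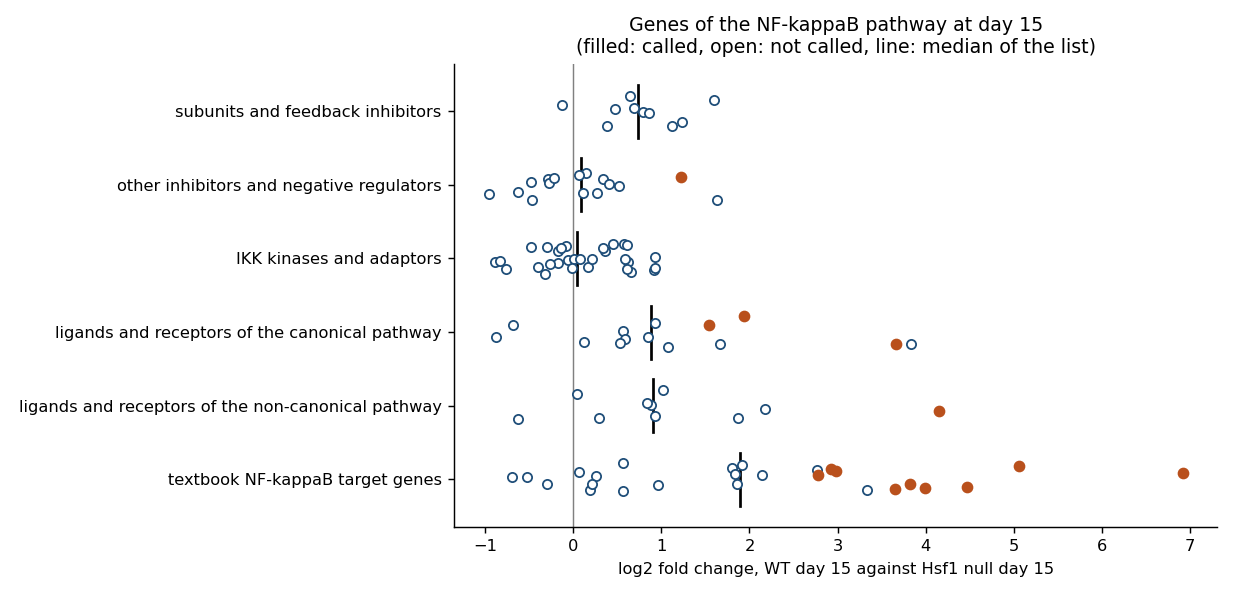
Each point is a tested gene, placed by its log2 fold change in WT day 15 against *Hsf1* null day 15, with 1 row per list, filled points for called genes and a line at the median. The medians are 0.74 for the subunits and feedback inhibitors, 0.043 for the IKK kinases and adaptors and 1.89 for the targets, and the places of *Csf3* and *Tnfsf11*, near 0 counts in null mice, depend on the prior count of the fit.

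From day 0 to day 15 in WT colon, 13 of 26 targets rose and none fell (median 2.08), against 3.47% of all genes tested called higher. Of the canonical ligands and receptors 4 of 14 rose, *Tnf* (2.72, SE 0.53, adjusted p = 0.0189), *Il1b* (4.03, SE 0.87, adjusted p = 0.0265), *Tnfrsf1b* and the endotoxin coreceptor *Cd14*. *Ltb* (2.67, SE 0.56, adjusted p = 0.0245), the inhibitors *Nfkbid* and *Zc3h12a*, and the adaptor *Myd88* also rose. In null colon, 4 of 26 targets rose, *Nos2*, *Gadd45b*, *Saa3* and *Bcl2l1*, and none fell, against 5.30% of all genes tested called higher. The median of the targets was 1.44, or 1.10 with genes at 3 or fewer counts in a group set to that floor. *Tnf* (2.09, SE 0.55, adjusted p = 0.0377), *Tnfrsf1b* and *Ltb* (2.49, SE 0.57, adjusted p = 0.0257) rose too, and *Il1rap*, a coreceptor for interleukin-1, and *Tlr4*, the endotoxin receptor, fell. Of the other inhibitors *Nfkbib*, *Nfkbid*, *Nfkbil1* and *Otulin* rose and *Rnf11* fell in null colon, which makes 5 of 16. Of the 30 kinases and adaptors *Ikbke* and *Rbck1* rose and *Tab3* fell, against the 11.8% of all genes called in this comparison.

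These counts too depend on the mice, as do the counts of calls over all genes tested. Targets called in WT fell from 13 to 3 without WT day 15 replicate 2, to 4 without WT day 0 replicate 2 and to 8 without WT day 0 replicate 1, and those called in null colon went from 4 to 0 without null day 0 replicate 2, to 2 without null day 15 replicate 2, to 7 without WT day 15 replicate 1 and to 8 without WT day 15 replicate 2. In WT the 4 canonical genes fell to 0 without WT day 0 replicate 2 or WT day 15 replicate 2 and to 2 without WT day 0 replicate 1, and were 6 without WT day 15 replicate 1. *Ltb* in WT was lost without WT day 0 replicate 2 or WT day 15 replicate 2. *Nfkbid*, *Zc3h12a* and *Myd88* in WT were lost without either WT day 0 mouse or without WT day 15 replicate 2, and *Zc3h12a* also without WT day 15 replicate 1. In null colon the canonical calls, 2 higher and 2 lower, and that of *Ltb* were lost without null day 0 replicate 2 or either null day 15 mouse. *Tnfrsf1b* in null colon was also lost without null day 0 replicate 1. The count of 4 inhibitors called higher in null colon fell to 0 without null day 0 replicate 2 or null day 15 replicate 2 and to 1 without null day 15 replicate 1. *Ikbke* and *Rbck1* were lost without any 1 of these 3 mice, and without null day 0 replicate 1 the kinases and adaptors called higher were 5. Over the 8 fits *Bcl2l1* remained called in 2, *Tlr4* in 1 and *Tab3* in none, and an inhibitor was called lower in null colon in 1. With all mice DESeq2 called 15 targets and 7 canonical genes in WT, and 8 targets and 5 canonical genes, 3 of them higher, in null colon. Of all genes tested DESeq2 called 12.1% in WT and 15.3% in null colon. In the interaction edgeR called none of the 26 targets with all mice. An unadjusted p under 0.05 was found for 4, against 8.62% of all genes tested. DESeq2 called 3, against 0.835% of all genes tested.

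Markers of several cell types moved with the groups in which the NF-kappaB genes were highest. At day 15 the summed level of 6 neutrophil markers was 119 and 499 CPM in WT against 6.20 and 23.5 CPM in null mice, and 3 of the 6, *S100a8*, *S100a9* and *Retnlg*, were called higher in WT by edgeR and 4 by DESeq2. *S100a8* and *Mmp8* were at 0 counts in null day 15 replicate 1. Macrophage and monocyte markers summed to 1241 and 1989 CPM in WT against 280 and 766 CPM in null mice, with 2 of 10 called by edgeR, *C1qa* and *C1qb*, and 4 by DESeq2. The largest item of this sum was *Lyz2*, at 403 and 1006 CPM in WT. All 10 estimates were above 0, but *Ccr2* and *Cx3cr1* overlapped between genotypes, *Cx3cr1* at 9.05 and 13.5 CPM against 5.27 and 17.0 CPM. T cell markers (112 and 198 against 54.1 and 87.5 CPM) and B cell markers (493 and 1097 against 245 and 293 CPM) were higher in WT without overlap. For the T cell and B cell lists edgeR called 0 of 8 each, with an unadjusted p under 0.05 for 3, and DESeq2 called 1. Of all genes tested in this comparison, edgeR called 3.17% and DESeq2 8.41%, and 23.2% had an unadjusted p under 0.05 in edgeR.

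Of the structural cell types, colon epithelium summed to 16307 and 19630 CPM in WT day 15 and 32751 and 26215 CPM in null day 15 mice, with none of its 8 markers at 0 in any library. Of these, edgeR called 0, with an unadjusted p under 0.05 for 2, and DESeq2 called 2, both lower in WT. Fibroblast markers (2321 and 2344 against 438 and 1408 CPM) and endothelial markers (241 and 218 against 61.1 and 122 CPM, 1 of 5 called by edgeR, *Cdh5*, and 2 by DESeq2) were higher in WT without overlap. Smooth muscle markers were lower in WT (2912 and 1721 against 4093 and 5199 CPM), and 5 of 6 of them fell in WT from day 0 to day 15. Of the 6 fibroblast markers edgeR called 0 at day 15, with an unadjusted p under 0.05 for 2, and of the 6 smooth muscle markers 0, with an unadjusted p under 0.05 for 5. DESeq2 called 2 in each of the latter lists. In WT day 15 replicate 2, the mouse with the highest level of most of the NF-kappaB genes, the sums of neutrophil, macrophage, T cell and B cell markers were also the highest of all 8. The part of these markers in the differences of the NF-kappaB genes was not tested.

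**Figure D5:**
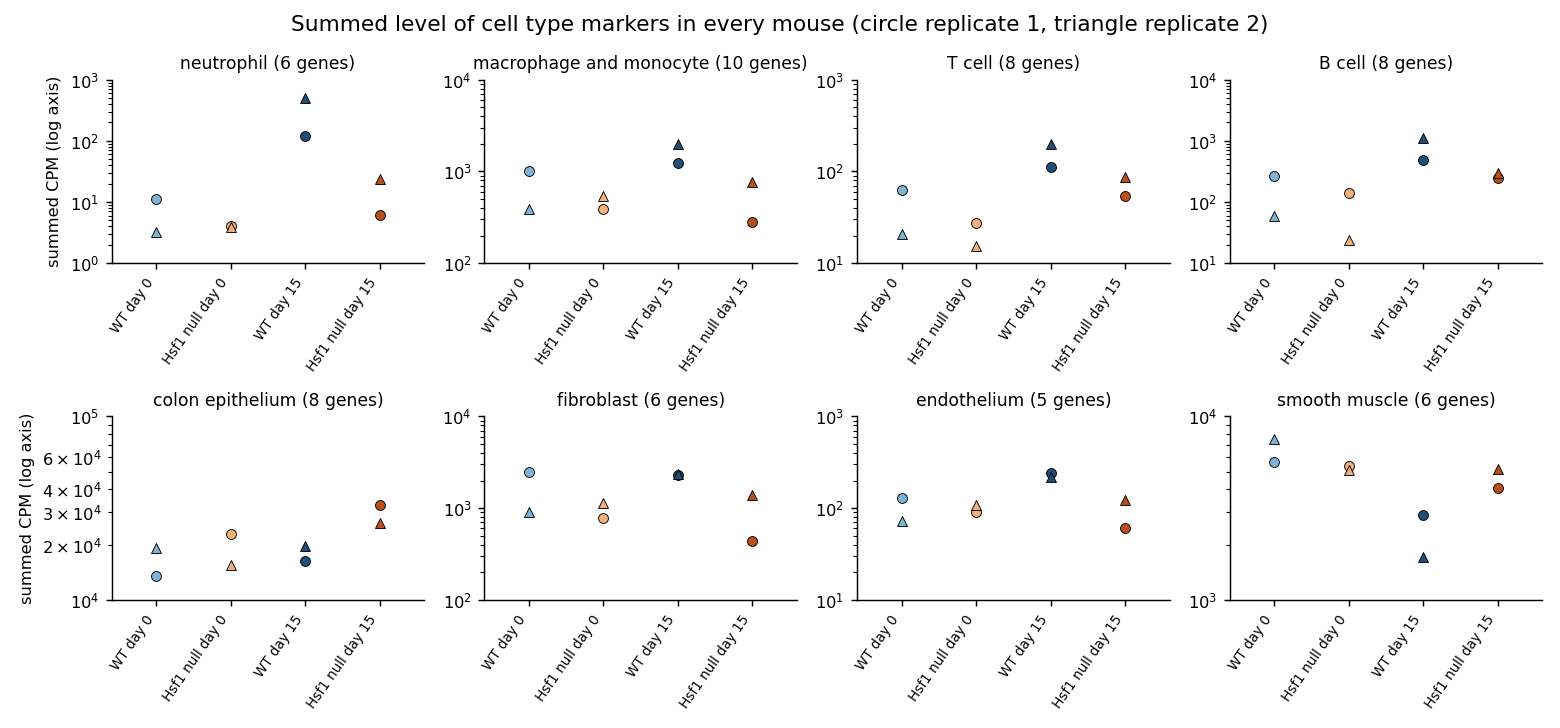
Each panel gives the summed CPM of the markers of 1 cell type in the 8 mice, on a log axis, with a circle for replicate 1 and a triangle for replicate 2. Neutrophil markers range from 6.20 to 499 CPM within day 15, and epithelial and smooth muscle markers are lower in WT than in null mice at that day.

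Genes with a pattern like that of *Nfkb2* were looked up over the 8 mice. The measure was the root mean square difference of log2(CPM + 1), each gene centred on its own mean, among 11050 genes with a mean count of at least 50. The closest were *Pim1*, a kinase induced by cytokines (0.23), *Pld3* (0.24), *Ptp4a3* (0.25), *Myo1g*, a myosin of blood cells (0.26), and *Gramd1a* (0.28). *Pim1* was at 18.0 and 11.1 CPM in WT day 0, 9.69 and 3.95 CPM in null day 0, 29.1 and 34.0 CPM in WT day 15, and 17.7 and 10.4 CPM in null day 15. Of the other 9 NF-kappaB genes, *Nfkbie* was nearest, at rank 7 (0.30), followed by *Bcl3* at rank 282 and *Nfkbia* at rank 384, and *Tnfaip3* was farthest, at rank 4748. The mice, their depth and their cell makeup are shared by all these genes.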

How the data were processed

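RNA-seq of distal colon from 8 mice was analysed. Per the labels and the study's methods, the authors aligned reads to mm10 with STAR and deposited raw counts per gene symbol; the counting program, annotation and strand setting are not given in the sources used here. The deposited normalized table was not used. The subunits, inhibitors and pathway and marker lists were chosen with earlier results of these data known. Counts were tested with edgeR 4.0.16 in R 4.3.3 (TMM, quasi-likelihood, 1 model of 4 groups, 14371 genes with a mean normalized count above 5, prior degrees of freedom 5.97), with Benjamini-Hochberg adjustment over all genes of a comparison. A call needed a difference of more than 1 on the log2 scale at an adjusted p below 0.05. Intervals (95%) use the residual and prior degrees of freedom. CPM use TMM library sizes. Named genes are the 10, *Hsf1*, at most 4 called genes per list and comparison in full plus *Tnf*, *Il1b*, *Il1r1*, *Ltb*, *Ltbr* and *Map3k14*, and the 5 nearest to *Nfkb2*. Other called list genes and markers, and *Psd*, were named after their values were seen. Each replicate is 1 mouse. Alternatives included DESeq2 1.42.0, other filters and normalization, thinning and leaving out each mouse. The tests were tried on simulated data first.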

Additional observations from a re-analysis of the deposited data

How the results depend on the processing

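The number of the 10 genes called between genotypes stayed at 0 under every alternative at day 15, at day 0 and in the interaction. For the change in WT it was 1, and 2 with DESeq2 or with counts thinned to the smallest library, where 1 gene was also lower without overlap, and 0 to 2 leaving out each mouse. For the change in *Hsf1* null mice it was 1, 0 with thinned counts, and 0 to 4 leaving out each mouse.

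Replicate numbers are shared between groups by name only. Deviations of same-numbered mice correlated between -0.30 and 0.20, with 2 pairs for any comparison. With the replicate number as a block, 0 of the 10 genes were called in the null change (*Bcl3* 1.23, adjusted p = 0.0539), and over all genes the block gave 343, 0, 868, 1505 and 2 calls for day 15, day 0, the WT change, the null change and the interaction, against 455, 0, 1112, 1692 and 1. Under the block *Nfkbiz* turned to 0.051 at day 0 and *Nfkbia* to -0.22 in the interaction.

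On thinned counts *Rel* turned to 0.13 in the null change and *Nfkbia* to -0.056 in the interaction. Leaving out each mouse in turn moved estimates across 0. At day 15 *Relb* ranged from -0.57 to 0.50. At day 0 *Nfkbia* ranged from -0.27 to 2.14, *Nfkbiz* from -0.43 to 0.50, *Rel* from -0.27 to 0.67 and *Relb* from -0.58 to 0.51. In the WT change *Tnfaip3* ranged from -0.13 to 0.024. In the null change *Nfkb1* ranged from -0.36 to 0.031, *Nfkbia* from -0.26 to 2.14, *Nfkbiz* from -0.49 to 0.44, *Rel* from -0.82 to 0.27 and *Relb* from -0.17 to 1.14. In the interaction *Bcl3* ranged from -0.20 to 0.60, *Nfkb2* from -0.42 to 1.00, *Nfkbia* from -1.66 to 0.75, *Nfkbie* from -0.55 to 1.00, *Rela* from -0.77 to 0.12 and *Relb* from -0.63 to 0.68.

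Over all genes DESeq2 called 1208 at day 15, 18 at day 0, 1737 in the WT change, 2203 in the null change and 120 in the interaction. Leaving out each mouse gave 12 to 873, 0 to 17, 92 to 1336, 0 to 1891 and 0 to 50 calls for day 15, day 0, the WT change, the null change and the interaction. A fit to the mice of the 2 groups compared called 6 at day 15, none of them among the 26 targets. The cause was not tested. Overlap counts under other scalings were added after seeing the data. Of the 5 genes nearest to *Nfkb2*, 4 were shared with a pseudocount of 0.1 and 3 with no minimum count. *Rel*, on 12 to 192 reads, has the fewest reads of the 10 genes.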
